A study of Gallus gallus with 6 samples.

Results

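The genes described here encode protein tyrosine phosphatases, dual specificity phosphatases and their relatives, in Bach2 knockout (Bach2-/-) and wild type (Clone 18) cells of the chicken B cell line DT40. They were chosen by gene symbol: the dual specificity phosphatases (DUSP), the non-receptor (PTPN) and receptor (PTPR) tyrosine phosphatases, the PTP4A phosphatases, the myotubularins (MTMR) and CDC25. Of 17108 genes in the table of counts, 63 had such a symbol, with a further PTPN gene left out by the rule, and 48 of the 63 had at least 20 counts summed over the 6 libraries. Of the 15 others, 9 had no count at all. Just inside the minimum were DUSP7 with 21 counts and PTPN22 with 22, and just outside were DUSP16 with 17 and PTPRR with 3. RNA was sequenced from 3 independent cultures of each genotype, and both genotypes were grown in the same medium. The labels do not say that the knockout cultures came from more than 1 clone, and the data columns call the knockout Bach2ko1. If there was 1 clone, a difference between the genotypes and a difference particular to that clone cannot be told apart.

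Library totals ran from 12934863 to 19316678 counts in the knockout and from 8999010 to 20647281 in the wild type. BACH2 itself had 1.07, 1.39 and 1.06 RPKM (reads per kilobase of transcript, scaled to library size by the authors) in knockout replicates 1, 2 and 3, against 2.68, 2.55 and 2.45 RPKM in the wild type. Its log2 fold change of knockout over wild type was -1.16 ± 0.20 (SE, edgeR adjusted p = 0.00144). All 10 B cell markers examined were above 1 RPKM, and they summed to 1030 to 1100 RPKM in the knockout and 1260 to 1400 RPKM in the wild type. Of 6 T cell markers CD4 and CD28 were at 0 and LCK was under 1 RPKM in every library. CD3D made up most of a sum of 109 to 137 RPKM in the knockout and 159 to 200 RPKM in the wild type. CD3E had 0.15, 0.42 and 0.41 RPKM in the knockout and 8.6, 5.6 and 6.1 RPKM in the wild type. CD8A had 0.10, 0.14 and 0.23 RPKM in the knockout and 4.0, 2.8 and 2.6 RPKM in the wild type. The 4 of 6 macrophage and granulocyte markers with a row, and the 3 of 6 erythroid and stromal ones, each summed to less than 1 RPKM in every library. CSF1R, MRC1, HBA1, HBBA and GATA1 had no row, so their levels are not known. These are bulk libraries, so a change in RNA per cell cannot be told apart from a change in the share of cells that express a gene.

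Protein tyrosine phosphatases remove phosphate that tyrosine kinases have added, by way of a cysteine in the active site. Dual specificity phosphatases use the same chemistry on tyrosine and on serine or threonine, and the MAP kinase phosphatases among them switch off ERK, JNK and p38. Myotubularins have the same fold but act on phosphoinositide lipids of endosomes, and several are catalytically dead partners of active ones. In B cells the receptor phosphatase CD45 (PTPRC) keeps Src family kinases ready to signal from the antigen receptor, while SH2 domain phosphatases act on inhibitory receptors.

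Most phosphatase genes did not pass the test, and those that did were mainly lower in the knockout. Of the 48 genes, 41 passed the filter on low counts and were tested. At an edgeR adjusted p under 0.05, 11 fell in the knockout (26.8%), 2 rose (4.88%) and 28 did not pass. Over all 9159 tested genes, 18.0% were lower and 12.7% higher. The share of phosphatase genes called in either direction, 31.7%, was close to the 30.7% of all tested genes. PTPN7, PTPRU and MTMR9LP were lower by at least 2-fold, a size of decrease that 5.31% of all tested genes had. Without knockout replicate 1 their log2 fold changes were -1.08, -0.92 and -0.75, so that only PTPN7 stayed past 2-fold. The 2 higher phosphatase genes stayed under a 2-fold increase, which 1.22% of all tested genes reached. The median log2 fold change was -0.080 for the phosphatase genes and -0.0014 for all tested genes. Knockout and wild type libraries were fully apart for 17 of the 41 genes (41.5%), against 46.2% of all tested genes.

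These counts depended on single libraries. Without wild type replicate 1, 5 genes were lower, among them MTMR7, and without knockout replicate 1, 18 were, among them DUSP5, MTMR7 and PTPRK. These 3 genes were not tested with all libraries and passed the filter through their wild type counts. Over all tested genes the lower calls numbered 1168 and 1898 in these fits, against 1647 with all libraries. The number of higher genes was 4 without knockout replicate 1 or 3 and 1 without knockout replicate 2 or wild type replicate 2 or 3. The median was -0.021 without wild type replicate 1, against -0.0055 for all tested genes. It was 0.017 when chromosome 3 genes were centred on their own median, close to the 0.021 of all tested genes. In all 13 alternative fits PTPN7, PTPRU, DUSP1 and PTPN9 were called lower and MTMR6 was called higher.

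**Figure D1:**
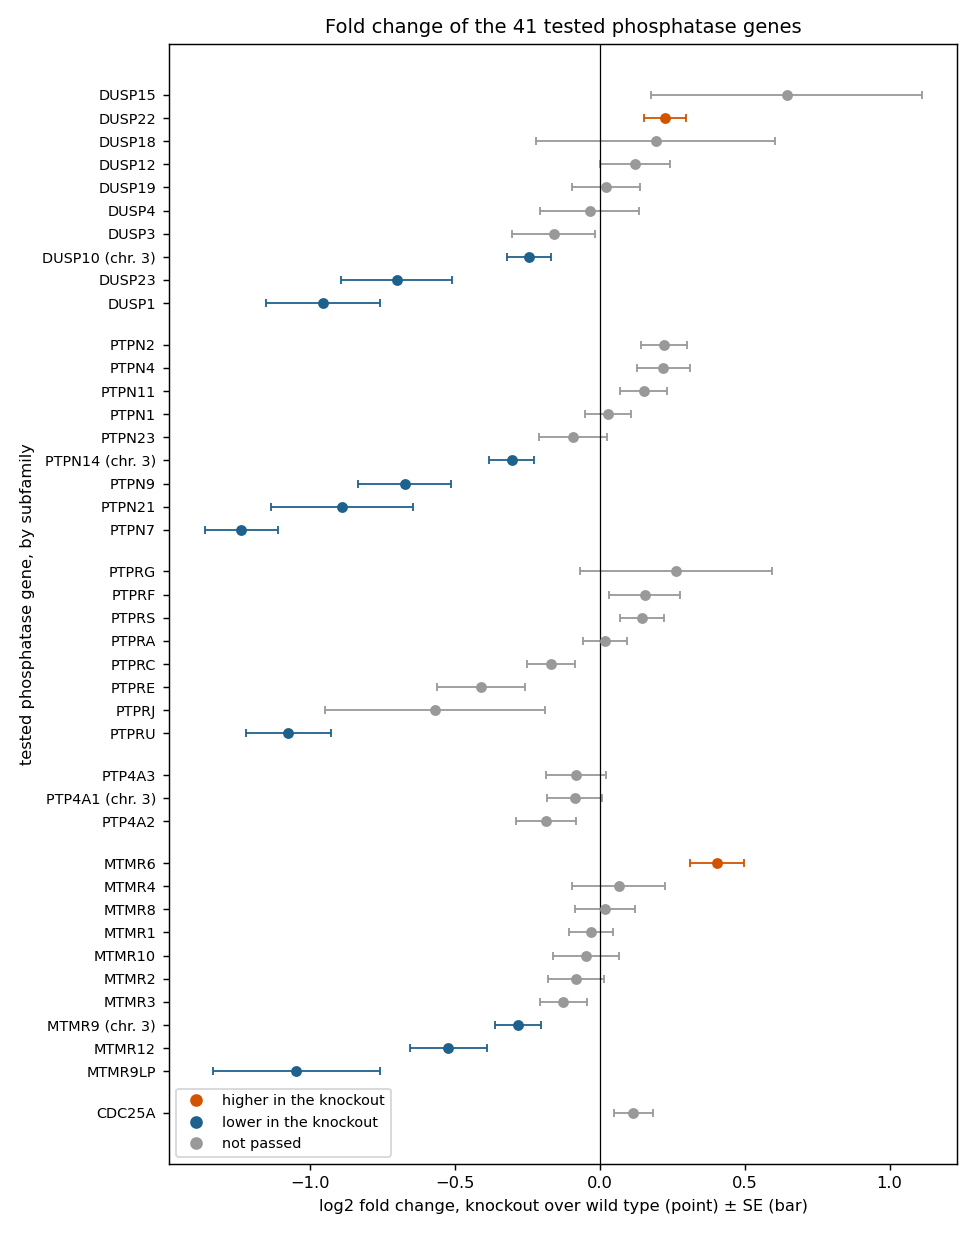
Log2 fold change of knockout over wild type (horizontal axis, points) with its standard error (bars) for the 41 tested phosphatase genes, grouped by subfamily and coloured by the edgeR call. The 11 genes called lower reach from -0.24 (DUSP10) to -1.24 (PTPN7), and the 2 called higher are DUSP22 at 0.23 and MTMR6 at 0.40.

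The transcripts ranged over more than 3 orders of magnitude in level. PTPN2, PTP4A2, PTPRC and PTP4A1 averaged over 100 RPKM in the 6 libraries (222, 175, 143 and 141 RPKM), 25 genes averaged at least 10 RPKM and 11 averaged under 1 RPKM. Summed over all 48 genes the level was 1434, 1308 and 1299 RPKM in knockout replicates 1, 2 and 3, against 1383, 1348 and 1353 RPKM in the wild type, so that the sums of the genotypes overlapped. None of the 4 most abundant genes passed the test. The called genes lay lower, between PTPN21 at 1.21 RPKM and DUSP22 at 59.5 RPKM.

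**Figure D2:**
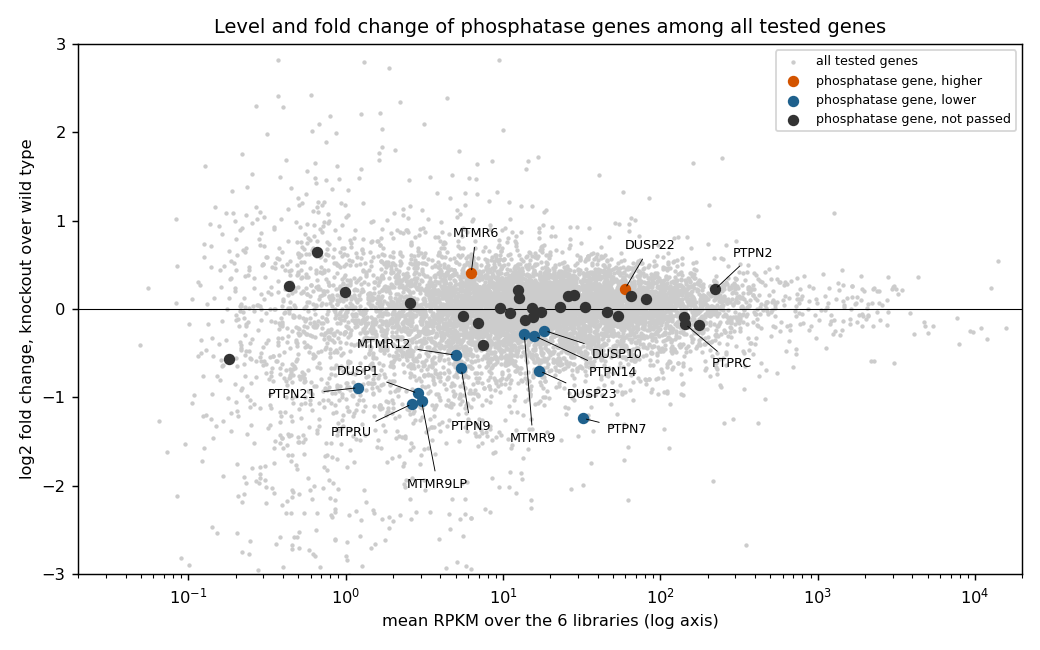
Mean RPKM over the 6 libraries (horizontal, log axis) and log2 fold change of knockout over wild type (vertical) for all tested genes (grey) and the 41 tested phosphatase genes (coloured by call); 106 genes lie outside the axes. The phosphatase genes with the largest decreases have mean levels of 1.21 RPKM (PTPN21) to 32.2 RPKM (PTPN7), and PTPN2, at 222 RPKM, is the most abundant.

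Among the 41 genes past the filter, the largest decrease was in a phosphatase of MAP kinases. PTPN7, also called HePTP, is a haematopoietic phosphatase that binds and dephosphorylates ERK and p38. It had 14.8, 20.9 and 22.5 RPKM in knockout replicates 1, 2 and 3, against 45.3, 45.4 and 44.0 RPKM in the wild type. All knockout libraries were far below the wild type libraries, which lay close together. The gene was 2.36-fold lower in the knockout, a log2 fold change of -1.24 ± 0.13 (SE, edgeR adjusted p = 5.17e-05) that ran from -1.34 to -1.08 over the alternatives.

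DUSP1, an immediate early gene whose product acts in the nucleus on p38 and JNK, had 1.47, 1.96 and 2.55 RPKM in the knockout and 4.27, 3.93 and 3.16 RPKM in the wild type. Its libraries did not overlap, and it fell by 0.96 ± 0.20 on the log2 scale (edgeR adjusted p = 0.00414). DUSP10, which prefers JNK and p38, had 17.9, 16.0 and 17.0 RPKM in the knockout and 20.8, 18.8 and 19.3 RPKM in the wild type. This narrow gap passed (-0.24 ± 0.077, edgeR adjusted p = 0.0347). The gene lies on chromosome 3, most of whose genes were lower in the knockout. Its call was lost without any single library other than knockout replicate 1, with edgeR adjusted p values of 0.0695 to 0.143, and also with library totals in place of TMM scaling (0.0611) and by DESeq2 (adjusted p = 0.0827).

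The other MAP kinase phosphatases did not pass. DUSP4, a nuclear relative of DUSP1, had 14.2, 19.4 and 18.8 RPKM in the knockout and 21.4, 15.8 and 14.9 RPKM in the wild type, with overlapping libraries. DUSP5, DUSP6 and DUSP7, which act on ERK, were below the count filter with totals of 55, 35 and 21 counts. DUSP5 had 5, 5 and 6 counts in the knockout and 24, 10 and 5 in the wild type, and its RPKM values did not overlap between the genotypes. Fitted without the filter it was at -1.41 ± 0.59 (edgeR adjusted p = 0.0902). Without knockout replicate 1 it passed the filter through its wild type counts and was called lower (edgeR adjusted p = 0.0351). That call is no separate support. DUSP6 had 2, 8 and 8 counts in the knockout and 9, 5 and 3 in the wild type. Without the filter neither DUSP6 nor DUSP7 passed (edgeR adjusted p = 0.902 and 0.224).

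The atypical dual specificity phosphatases are small and lack the docking domain for MAP kinases. DUSP22, which in mouse T cells acts on the kinase LCK, was the most abundant DUSP gene, with 37.2% of the summed DUSP level. It had 65.5, 66.5 and 62.6 RPKM in the knockout and 58.5, 53.3 and 50.7 RPKM in the wild type. Every knockout library was above every wild type library, by a small margin (0.23 ± 0.072, edgeR adjusted p = 0.0346). The call was lost without knockout replicate 2 (edgeR adjusted p = 0.118), wild type replicate 2 (0.121) or wild type replicate 3 (0.156).

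DUSP23, a short phosphatase with little beyond the catalytic domain, had 8.77, 14.9 and 15.3 RPKM in the knockout and 21.5, 18.9 and 22.6 RPKM in the wild type. It fell by 0.70 ± 0.19 on the log2 scale (edgeR adjusted p = 0.0185), with knockout replicate 1 well below the other knockout libraries. The call was lost without wild type replicate 1 (edgeR adjusted p = 0.0777) or 3 (0.0669). DUSP3, DUSP12, DUSP15, DUSP18 and DUSP19 did not pass, with log2 fold changes of -0.16 to 0.64. DUSP14 was below the filter with 0, 10 and 5 counts in the knockout and 28, 8 and 10 in the wild type, and stood at -1.81 ± 0.68 without the filter (edgeR adjusted p = 0.0553). Without knockout replicate 2 it passed the filter through its wild type counts and was called lower (edgeR adjusted p = 0.0361). That call is no separate support.

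**Figure D3:**
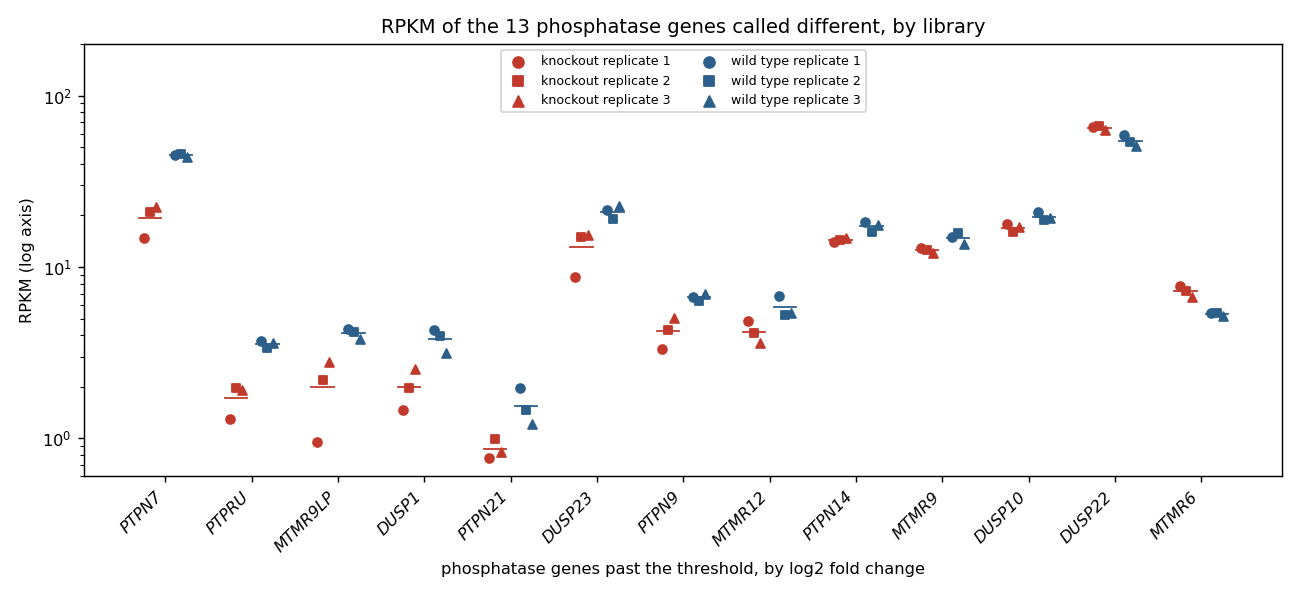
RPKM (vertical, log axis) of the 13 phosphatase genes past the threshold in each library, knockout left of wild type; symbols mark the replicate and short lines the group mean. For none of the 13 genes do the genotypes overlap, but the genes were picked by a test on these libraries, which favours such groups. Of all tested genes, 46.2% do not overlap. Knockout replicate 1 holds the lowest value for 8 of the 11 lower genes, a share not computed over all tested genes.

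Among the other non-receptor phosphatases, 3 fell and 5 did not pass. With PTPN7, 44.4% of the 9 tested PTPN genes fell, against 18.0% of all tested genes, and they were not tested as a set. PTPN9, whose product has a lipid-binding domain and sits on secretory vesicles, had 3.34, 4.28 and 5.02 RPKM in the knockout and 6.70, 6.31 and 6.91 RPKM in the wild type. Each knockout library was below each wild type library, and the gene fell by 0.67 ± 0.16 on the log2 scale (edgeR adjusted p = 0.00905). PTPN21 and PTPN14 are among the genes of large phosphatases with a FERM domain, which tethers proteins to the cell cortex. PTPN21 was low, with 0.768, 0.994 and 0.836 RPKM in the knockout and 1.96, 1.45 and 1.22 RPKM in the wild type (-0.89 ± 0.24, edgeR adjusted p = 0.0189). Without wild type replicate 1, its highest library, it was at -0.67 and no longer passed (edgeR adjusted p = 0.113). PTPN14, on chromosome 3, had 14.0, 14.4 and 14.7 RPKM in the knockout and 18.2, 16.1 and 17.6 RPKM in the wild type (-0.30 ± 0.077, edgeR adjusted p = 0.0130). Its call was lost without wild type replicate 1 (edgeR adjusted p = 0.0602) or 3 (0.0598).

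PTPN2, which dephosphorylates JAK kinases and STAT factors, was the most abundant of all the phosphatase genes and made up 55.1% of the summed PTPN level. It had 270.0, 230.2 and 223.9 RPKM in the knockout and 208.2, 199.8 and 198.7 RPKM in the wild type. Although every knockout library was above every wild type library, the test just missed the threshold (0.22 ± 0.080, edgeR adjusted p = 0.0557). It passed without knockout replicate 3 (edgeR adjusted p = 0.0228), without the count filter (0.0435), with library totals in place of TMM scaling (0.0302) and by DESeq2 (adjusted p = 0.0365). PTPN4 also had all knockout libraries above the wild type, with 14.1, 14.3 and 12.4 RPKM against 11.7, 11.7 and 10.6 RPKM. It did not pass (0.22 ± 0.090, edgeR adjusted p = 0.0874) except without knockout replicate 3 (0.0299).

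PTPN11 (SHP2), which carries signals from growth factor and cytokine receptors, stood at 0.15 ± 0.081, PTPN1 (PTP1B), anchored to the endoplasmic reticulum, at 0.028 ± 0.079, and PTPN23, a partner of the endosomal sorting machinery, at -0.091 ± 0.12. None of these 3 passed (edgeR adjusted p = 0.180, 0.823 and 0.593). PTPN22, the lymphoid phosphatase that partners with the kinase CSK, was nearly silent. It had 0, 2 and 2 counts in the knockout and 5, 10 and 3 in the wild type, and without the filter its edgeR adjusted p was 0.0844.

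Among the receptor phosphatases, 1 of 8 tested genes fell (12.5%, against 18.0% of all tested genes) and 7 did not pass. PTPRC, the gene of CD45, made up 64.0% of the summed receptor level. It had 153.6, 130.6 and 125.2 RPKM in knockout replicates 1, 2 and 3, against 148.6, 146.8 and 154.5 RPKM in the wild type. Knockout replicates 2 and 3 were below all wild type libraries and knockout replicate 1 was among them, and the gene missed the threshold (-0.17 ± 0.082, edgeR adjusted p = 0.145). With that library left out it was at -0.26 and was called lower (edgeR adjusted p = 0.00139).

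PTPRU, a receptor phosphatase of the homophilic adhesion class, was the receptor gene that fell. It had 1.29, 1.96 and 1.91 RPKM in the knockout and 3.71, 3.38 and 3.62 RPKM in the wild type. The highest knockout library was well under the lowest wild type library, and the gene fell by 1.07 ± 0.15 on the log2 scale (edgeR adjusted p = 0.000358). Over the alternatives it ran from -1.17 to -0.92. PTPRK, of the same class, lies on chromosome 3 and was under the filter. It had 7, 0 and 3 counts in the knockout and 14, 7 and 9 in the wild type. Without the filter it was at -1.75 ± 0.80 and did not pass (edgeR adjusted p = 0.121), nor did it by DESeq2 (adjusted p = 0.174). With knockout replicate 1, its highest knockout library, left out, it passed the filter through its wild type counts. It was then called lower (edgeR adjusted p = 0.00873), which is no separate support.

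PTPRE, whose cytosolic form is found in haematopoietic cells, had 8.09, 5.35 and 6.16 RPKM in the knockout and 7.80, 8.57 and 9.06 RPKM in the wild type (-0.41 ± 0.15, edgeR adjusted p = 0.0615). Again knockout replicate 1 lay among the wild type libraries, and without it the gene was called lower (-0.57, edgeR adjusted p = 0.00144). It was also called lower with all libraries and no count filter (-0.40, edgeR adjusted p = 0.0423). PTPRA, its close paralogue, was at 0.017 ± 0.076. The LAR type receptors PTPRF and PTPRS, best known from neurons, were at 0.15 ± 0.12 and 0.15 ± 0.077, and were called higher without knockout replicate 1 (edgeR adjusted p = 0.00587 and 0.0432). PTPRG and PTPRJ were under 1 RPKM and did not pass.

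The 3 PTP4A genes, which encode small prenylated phosphatases of membranes, did not pass. PTP4A2 had 199.1, 146.5 and 152.2 RPKM in knockout replicates 1, 2 and 3, against 182.9, 185.0 and 185.1 RPKM in the wild type. Knockout replicate 1 was above the wild type and the other knockout libraries were below it, so that the genotypes overlapped (-0.19 ± 0.10, edgeR adjusted p = 0.206). PTP4A1 behaved alike, with 161.2, 130.6 and 123.0 RPKM in the knockout and 141.1, 144.7 and 144.5 RPKM in the wild type. Without knockout replicate 1 both were called lower, PTP4A2 at -0.33 (edgeR adjusted p = 0.000202) and PTP4A1 at -0.21 (0.00751). PTP4A3 stood at -0.082 ± 0.10. CDC25A, which activates cyclin-dependent kinases at the start of S phase, was the only CDC25 gene with a matching symbol. It had 84.4, 84.0 and 87.6 RPKM in the knockout and 75.5, 81.5 and 74.0 RPKM in the wild type. Its knockout libraries were all higher, but the difference did not pass (0.12 ± 0.068, edgeR adjusted p = 0.223).

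Of 10 tested myotubularin genes, 1 rose and 3 fell. Over all tested genes 12.7% rose and 18.0% fell, and the myotubularins were not tested as a set. MTMR6, an active phosphatase of endosomal phosphoinositides, had 7.75, 7.25 and 6.68 RPKM in the knockout and 5.42, 5.36 and 5.18 RPKM in the wild type. The genotypes were well apart, with a log2 fold change of 0.40 ± 0.094 (SE, edgeR adjusted p = 0.00824) that ran from 0.36 to 0.48 over the alternatives. MTMR9 is a catalytically dead partner that binds MTMR6, MTMR7 and MTMR8. It had 12.8, 12.6 and 12.0 RPKM in the knockout and 14.9, 15.8 and 13.7 RPKM in the wild type (-0.28 ± 0.079, edgeR adjusted p = 0.0201) and lies on chromosome 3. Its call was lost without knockout replicate 2 (edgeR adjusted p = 0.0613) or 3 (0.0642) and without wild type replicate 1 (0.0639) or 2 (0.108).

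MTMR7 was under the filter, with 0, 4 and 2 counts in the knockout and 12, 11 and 10 in the wild type. Fitted without the filter it was called lower (-2.70 ± 0.78, edgeR adjusted p = 0.0142), as it was by DESeq2 (adjusted p = 0.0169). It passed the filter and was called lower when any single library other than wild type replicate 3 was left out (edgeR adjusted p = 0.0129 to 0.0441), and without wild type replicate 3 it was not called (0.0532). With 1 library left out the filter asked for fewer libraries, and MTMR7 passed it through its wild type counts, the higher ones. These calls are therefore no separate support. MTMR8 stood at 0.017 ± 0.10 with overlapping libraries. Of MTMR9 and its 3 known partners, MTMR6 rose, MTMR8 did not pass and MTMR7 was under the filter with all libraries in the fit. MTMR9 fell, but relative to the median of chromosome 3, where it lies, it was at 0.17 and was not called (edgeR adjusted p = 0.135).

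MTMR12, another dead member and an adaptor of MTM1 and MTMR2, had 4.83, 4.10 and 3.62 RPKM in the knockout and 6.78, 5.26 and 5.40 RPKM in the wild type (-0.52 ± 0.13, edgeR adjusted p = 0.0131). Without wild type replicate 1 it was at -0.39 and was not called (edgeR adjusted p = 0.0791). MTMR9LP, a row described in the table as an MTMR9-like pseudogene, had 0.955, 2.18 and 2.80 RPKM in the knockout and 4.32, 4.18 and 3.77 RPKM in the wild type. It fell by 1.05 ± 0.29 on the log2 scale (edgeR adjusted p = 0.0191), and the call was lost without wild type replicate 1 (0.0853) or 2 (0.0610). The sources used here do not say how reads matching both this row and MTMR9 were counted, so its counts are uncertain. MTMR1, the most abundant with 39.3% of the summed myotubularin level, had 47.7, 47.5 and 42.7 RPKM in the knockout and 48.3, 45.9 and 43.3 RPKM in the wild type and did not pass (-0.031 ± 0.076). MTMR2, MTMR3, MTMR4 and MTMR10 did not pass, with log2 fold changes of -0.12 to 0.066.

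Chromosome and library were set beside these calls. By a gene table of the GRCg7b assembly, 5 of the 48 genes lie on chromosome 3: DUSP10, MTMR9, PTPN14, PTP4A1 and PTPRK. Of the 688 tested genes of that chromosome, 70.3% were called lower and 1.16% higher, with a median log2 fold change of -0.45. Of the 4 tested phosphatase genes there, 3 fell and 1 did not pass. These 4 genes, at -0.30 to -0.086, were all less reduced than that median. Taken relative to it, DUSP10, MTMR9 and PTPN14 were at 0.21, 0.17 and 0.15 and were not called (edgeR adjusted p = 0.0678, 0.135 and 0.179), and PTP4A1 was at 0.37 and was called higher (0.0161). Among the 37 tested phosphatase genes that were not placed on chromosome 3, 8 fell (21.6%) and 2 rose (5.41%), against 13.7% and 13.6% of the 8471 such genes tested. Their median was -0.034, against 0.023.

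The genes next to the called ones outside chromosome 3 mostly did not pass. For these 10 genes, 8 lower and 2 higher, 1 of the 20 nearest tested neighbours was called in the same direction (ERGIC1, beside DUSP1). This count was not tested against the 13.7% lower and 13.6% higher of the tested genes not placed on that chromosome. DUSP22 lies next to IRF4, a B cell transcription factor, which was at -0.15 and did not pass (edgeR adjusted p = 0.214). PTP4A2 and MTMR9LP share a stretch of chromosome 23, with 4 tested genes between them. MTMR9LP lies between HDAC1 (0.11) and EIF3I (0.077), neither of which passed (edgeR adjusted p = 0.321 and 0.403).

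Knockout replicate 1 differed from its fellow replicates for many of these genes. It also stood apart as a whole library. Chi-square over degrees of freedom was 20.5 and 29.1 against knockout replicates 2 and 3, and 6.6 between those. It had the lowest value of the 6 libraries for 8 of the 11 genes called lower, among them PTPN7, DUSP1, DUSP23 and MTMR9LP, and the knockout's highest value for PTPRC, PTPRE, PTP4A1 and PTP4A2. Such shares were not computed over all tested genes. All 11 lower genes were also called lower without knockout replicate 1.

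The genes around the phosphatases were described with 6 lists, whose counts can be read against the 12.7% higher and 18.0% lower of all tested genes. Among 22 tested genes that were listed under the wider phosphatase superfamily, 5 rose and 3 fell. Their median was -0.018, and ran from -0.21 without knockout replicate 2 to 0.081 without knockout replicate 3. STYXL1, a dead phosphatase, had 7.10, 7.15 and 7.74 RPKM in the knockout and 4.02, 3.08 and 4.35 RPKM in the wild type (0.92 ± 0.18, edgeR adjusted p = 0.00320). SBF2, a dead myotubularin that pairs with MTMR2, had 6.39, 6.16 and 5.42 RPKM in the knockout and 4.22, 3.82 and 4.05 RPKM in the wild type (0.54 ± 0.10, edgeR adjusted p = 0.00240). The other higher genes were CDC14A (0.47), SACM1L (0.41) and EYA3 (0.35). The lower ones were TNS3 (-0.84), PALD1 (-0.35) and, on chromosome 3, RNGTT (-0.27). The call of CDC14A was lost without wild type replicate 1 or 3 (edgeR adjusted p = 0.0790 and 0.0950) and that of PALD1 without any single wild type library (0.0581 to 0.0930). PALD1 was at -0.23 without knockout replicate 1. RNGTT lost its call without any wild type library or knockout replicate 2 (edgeR adjusted p = 0.0539 to 0.0831) and by DESeq2 (adjusted p = 0.0559). TNS3 lost its call without any single library other than knockout replicate 1 (edgeR adjusted p = 0.0655 to 0.146), with library totals (0.0537), with the replicate number as a block (0.0749) and by DESeq2 (adjusted p = 0.0534), and was at -0.55 without knockout replicate 3.

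Genes of the Src kinase circuit, on which CD45 acts, were lower where they passed. Among 8 tested genes of Src family kinases, JAK kinases, CSK and its adaptor, 3 fell and 5 did not pass, with a median of -0.48 that was -0.31 without wild type replicate 1 and -0.63 without wild type replicate 2. By edgeR 0 were higher, also at an unadjusted p under 0.05, and by DESeq2 0 were called higher. Over all tested genes 18.0% were lower and 12.7% higher, so that 0 higher among 8 genes carries little weight. The kinases JAK1 (0.003) and JAK2 (-0.14) were among those that did not pass. CSK, the kinase that restrains Src family members, had 57.9, 60.1 and 62.8 RPKM in the knockout and 103.1, 104.5 and 99.8 RPKM in the wild type (-0.80 ± 0.065, edgeR adjusted p = 9.80e-06). PAG1, the membrane adaptor that recruits CSK, had 0.0547, 0.237 and 0.367 RPKM in the knockout and 2.03, 2.03 and 1.57 RPKM in the wild type (-3.01 ± 0.43, edgeR adjusted p = 0.000472). LYN, the main Src family kinase of B cells, had 73.9, 69.1 and 63.3 RPKM in the knockout and 102.4, 104.0 and 105.9 RPKM in the wild type (-0.63 ± 0.073, edgeR adjusted p = 0.000113). For each of the 3 genes the genotypes were far apart and the call held in all alternatives.

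MAP kinases and their upstream kinases, which include the substrates of PTPN7 and the MAP kinase phosphatases, mostly did not pass. Among 14 tested there were 2 that rose and 1 that fell, with a median of 0.049 that was -0.036 without knockout replicate 1 and 0.11 without knockout replicate 3, with 0.0063 to 0.088 without each of the other libraries in turn. MAP2K3, which activates p38, rose by 0.31 ± 0.063 on the log2 scale (edgeR adjusted p = 0.00421) and kept its call in all alternatives. MAP2K5 (0.26) and MAP2K2 (-0.23) lost theirs when any single wild type library was left out, and MAP2K2 also without knockout replicate 2 (edgeR adjusted p = 0.0777 to 0.103). MAP2K5 also lost it with the replicate block (edgeR adjusted p = 0.0562) and MAP2K2 with library totals (0.0502). Of 9 tested Sprouty, SPRED and ERK response genes, 3 rose and 2 fell (median -0.15, or -0.096 without wild type replicate 1 and 0.077 with chromosome 3 genes centred on their own median). ETV5, an ETS factor induced by ERK, had 1.00, 0.977 and 1.20 RPKM in the knockout and 2.90, 1.85 and 1.99 RPKM in the wild type (-1.13 ± 0.20, edgeR adjusted p = 0.00158). IER5 was at -0.44, MYC at 0.39, ERRFI1 at 0.34 and EGR1, under 1 RPKM in each library, at 1.50 ± 0.51 (edgeR adjusted p = 0.0467). The call of EGR1 was lost without any single library other than knockout replicate 1 (edgeR adjusted p = 0.0632 to 0.214), with the replicate block (0.0628) and by DESeq2 (adjusted p = 0.0871), and its log2 fold change was 0.95 without wild type replicate 1. The call of IER5 was lost without wild type replicate 1 (edgeR adjusted p = 0.0690) and that of ERRFI1 without wild type replicate 1 (0.0924), wild type replicate 2 (0.167) or knockout replicate 2 (0.0796).

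Of 14 tested genes that control CDK1 and CDK2, the targets of CDC25A, 3 rose and 1 fell (median 0.12, or 0.064 without knockout replicate 1 and 0.20 without knockout replicate 3). CCNE1 (cyclin E) rose by 0.43 ± 0.11 on the log2 scale (edgeR adjusted p = 0.0105) and WEE1, the kinase that opposes CDC25, by 0.29 ± 0.082 (0.0202). YWHAB was at 0.23 and CDK7 at -0.33. The call of WEE1 was lost without knockout replicate 2 (edgeR adjusted p = 0.0714), wild type replicate 1 (0.0797) or wild type replicate 3 (0.0805). That of YWHAB was lost without any wild type library (edgeR adjusted p = 0.0824 to 0.146), with a minimum mean of 1 RPKM (0.0505) and with the replicate block (0.0512). That of CDK7 was lost without any library other than knockout replicate 1 (edgeR adjusted p = 0.0632 to 0.132), with library totals (0.0556), with the replicate block (0.0535) and by DESeq2 (adjusted p = 0.0903). Of 16 tested genes that make or read the lipids myotubularins act on, 1 rose and 1 fell (median 0.016, and 0.0057 to 0.059 with each library left out in turn). PIK3C2B, a lipid kinase that lies on chromosome 26 like PTPN7, had 1.83, 1.72 and 2.05 RPKM in the knockout and 5.05, 3.88 and 3.81 RPKM in the wild type (-1.23 ± 0.14, edgeR adjusted p = 9.39e-05). EEA1, an endosomal tether that binds such lipids, was at 0.24 (edgeR adjusted p = 0.0439) and lost its call without knockout replicate 2 or any wild type library (0.0529 to 0.156), with a minimum mean of 1 RPKM (0.0510) and with the replicate block (0.0793).

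**Figure D4:**
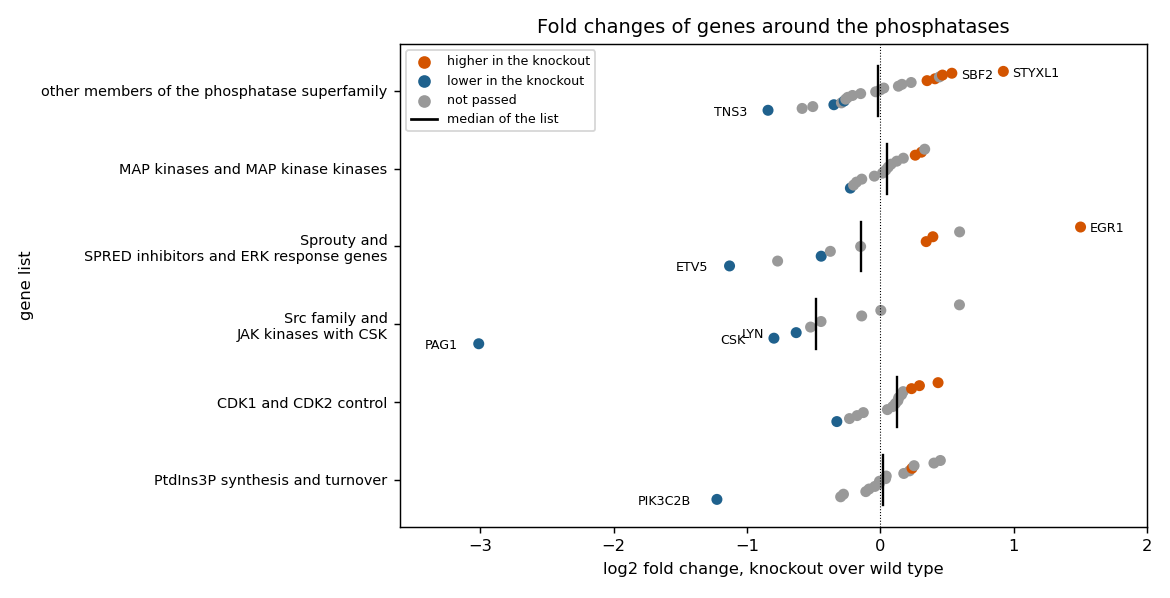
Log2 fold change of knockout over wild type (horizontal axis) for each tested gene of 6 lists around the phosphatases (rows), coloured by the edgeR call, with the list's median as a black line. The Src family and JAK kinases with CSK have the lowest median, -0.48 (-0.31 without wild type replicate 1), and hold the lowest gene, PAG1 at -3.01.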

How the data were processed

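Per the file values, the authors deposited whole-number counts and RPKM for 17108 Ensembl genes in 6 libraries; each deposited RPKM is its count scaled by a factor for the gene and another for the library. The build galGal4 and the tools Subread 1.5.0, TopHat2 2.1.0, limma, edgeR and bcl2fastq 1.8.4 are named in the submitters' processing notes; the annotation and use of strand are not given in the sources used here, so overlapping genes cannot be told apart. Counts were tested in R 4.3.3 with edgeR 4.0.16 (filterByExpr, TMM, glmQLFit and glmQLFTest, two-sided, Benjamini-Hochberg over 9159 genes, threshold 0.05), on all 6 libraries without covariates; SE is the absolute log2 fold change divided by the square root of F. DESeq2 1.42.0 served as an alternative. P-values measure the spread between cultures. RPKM is used for levels; groups are printed as the 3 libraries. Chromosomes and neighbours come from RefSeq's GRCg7b gene table, matched by NCBI gene identifier, which placed all 48 genes. Replicates differed by more than counting noise (chi-square over degrees of freedom of 3.20 to 29.1, highest for the pairs with knockout replicate 1). The test was checked on simulated data, but the outcome is not given here. Named genes are, per subfamily, up to 6 past the threshold with the largest change and the most abundant one, genes under the filter without overlap, and up to 3 per list; further genes were named after their values were seen. Members and lists were chosen with earlier results of these data known. The planned search for the phosphatase signature in protein sequences was not done here.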

Additional observations from a re-analysis of the deposited data

How the results depend on the processing

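BACH2 kept its call in all 12 alternatives. The gene table did not place it on a chromosome, so it was not taken relative to the median of chromosome 3. With 1 library left out, the phosphatase genes called numbered 1 to 4 higher and 5 to 18 lower, and those of the 6 lists 7 to 17 higher and 5 to 15 lower, against 2, 11, 14 and 11 with all libraries. Over all tested genes the calls then numbered 635 to 1455 higher and 1168 to 1898 lower, against 1163 and 1647. In some of these fits the lower phosphatase genes include MTMR7, DUSP5, DUSP14 or PTPRK, which were under the filter with all libraries. For the lists, the higher genes were 7, 9 and 8 without wild type replicate 1, 2 or 3, and the lower ones 5, 6 and 6 without these and 7 without knockout replicate 2. With library totals, DESeq2 size factors, DESeq2, other filters or the replicate block the counts stayed within 1.5 times, but calls were lost. The replicate block ended the calls of TNS3, MAP2K5, EGR1, CDK7, YWHAB and EEA1 and left 10 higher genes in the lists. Library totals ended the calls of DUSP10, TNS3, MAP2K2 and CDK7, and DESeq2 those of DUSP10, RNGTT, TNS3, EGR1 and CDK7. The minimum mean of 1 RPKM ended the calls of YWHAB and EEA1, and EGR1 and TNS3, which were under it, were not tested. Relative to the median of chromosome 3, 0 of its 3 lower phosphatase genes were called lower by edgeR (also 0 lower at an unadjusted p under 0.05), and DUSP10 (0.21), MTMR9 (0.17), PTPN14 (0.15) and PTP4A1 (0.37) changed sign. All 4 genes were less reduced than that median (-0.45). The offset therefore fixed their sign and the 0 lower calls in advance, and these are no separate check. Deviations of same-numbered libraries correlated at 0.0036, 0.093 and -0.021, and those of libraries with unlike numbers at -0.058 to 0.049. Whether same-numbered libraries shared a batch was not tested. With the replicate block 2 phosphatase genes were higher and 11 lower, the same genes as without it.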
